A study of Mus musculus with 20 samples.

Results

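The genes described here act in the G2 phase and mitosis of the cell cycle: the CDK1 kinase and its cyclins, the mitotic kinases, the spindle checkpoint, the kinetochore, spindle motors, cytokinesis factors and the anaphase-promoting complex (APC/C) with its substrates. The list holds 38 gene symbols chosen for these functions, and each was looked up in the platform annotation, where the probe set that was brightest on average over all 20 arrays stood for the gene. Of the 38 symbols, 37 were measured among 18193 genes. Ccnb1, which encodes cyclin B1, had no probe set named for it alone in the annotation used and was not analysed here.

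The cells were Hepa1-6, an established mouse hepatoma line from a C57L liver tumour and the only cell line used. Treated cells received TGFβ1 at 1 ng/ml and were taken after 0, 1, 3, 6 and 10 h, and untreated cells were taken at the same times with nothing added. Every culture, treated or untreated, had been washed and left without growth factors from 4 h before the start, so time in the experiment is also time in that medium. Each of the 10 groups had 2 biological duplicates, each hybridised to its own Affymetrix array, and the labels call the treated 0 h samples equivalent to the untreated 0 h samples.

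Cells accumulate the transcripts of mitotic genes late in the cycle, use the proteins to condense, attach and separate chromosomes, and then destroy many of the proteins through the APC/C. Many of these genes share promoter elements, among them the cell cycle homology region (CHR) and the CCAAT box, which are known as the binding sites of the DREAM and MMB complexes and of NF-Y. TGFβ is best known in epithelial cells, hepatocytes included, for holding cells in G1 through CDK inhibitors such as p15, the product of Cdkn2b, and p21, the product of Cdkn1a.

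The promoters of 4 members are shown because these genes had the lowest adjusted p among members with a CHR in their window when treated and untreated cells were compared at 6 h. The stretches run from 150 bases before the annotated start to 30 bases from it, come from RefSeq on GRCm38.p6, and are written along the gene's strand, which is the minus strand for all 4. Capitals mark the CHR, searched as TTTGAA or TTCGAA on both strands, and the CCAAT box, searched as CCAAT on both strands. A CHR and a CCAAT box could share bases in this search. Top2a encodes the topoisomerase that untangles sister chromatids and lies at chr11:99024160-99024339. Anln encodes anillin, the scaffold of the cytokinetic ring, at chr9:22389177-22389356. Cdc20 encodes the activator that turns the APC/C on at anaphase, at chr4:118437314-118437493. Cdk1 encodes the kinase that drives entry into mitosis, at chr10:69352883-69353062.
Top2a: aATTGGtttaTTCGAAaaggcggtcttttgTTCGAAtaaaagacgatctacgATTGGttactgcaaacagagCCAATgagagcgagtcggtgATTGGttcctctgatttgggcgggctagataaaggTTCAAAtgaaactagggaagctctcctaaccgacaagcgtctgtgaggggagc
Anln: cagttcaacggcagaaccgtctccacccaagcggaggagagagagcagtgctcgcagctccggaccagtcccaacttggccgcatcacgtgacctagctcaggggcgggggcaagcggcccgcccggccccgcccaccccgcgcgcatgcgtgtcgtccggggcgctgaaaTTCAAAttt
Cdc20: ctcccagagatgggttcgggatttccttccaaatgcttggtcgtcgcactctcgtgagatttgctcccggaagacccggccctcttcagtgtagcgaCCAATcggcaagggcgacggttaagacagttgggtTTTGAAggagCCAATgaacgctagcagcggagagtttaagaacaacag
Cdk1: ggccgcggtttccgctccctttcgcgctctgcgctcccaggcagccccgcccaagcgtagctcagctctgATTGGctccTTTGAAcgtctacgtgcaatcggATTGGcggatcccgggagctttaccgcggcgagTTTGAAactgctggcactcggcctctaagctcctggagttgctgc

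The printed stretch held 3 CHR matches for Top2a, 1 for Anln, 1 for Cdc20 and 2 for Cdk1, and the CCAAT matches numbered 4, 0, 2 and 2 in the same order of genes. In the full windows, from 250 bases before the start to 50 after it, 31 of the 38 listed genes had a RefSeq entry, and 23 of the 31 (74.2%) held a CHR, against 21.7% of 27025 genes. A CCAAT box was found in 24 of the 31 (77.4%), against 41.1% of all windows, and both motifs stood in 20 (64.5%), against 9.65%. Among 84 other mitosis genes that were measured, 70 had a window, and 46 of these (65.7%) held a CHR. No window was at hand for Ccna2, Cdc25c, Aurkb, Kif20a, Tpx2, Incenp and Foxm1. A match is a description of the letters and not a bound site.

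**Figure D1:**
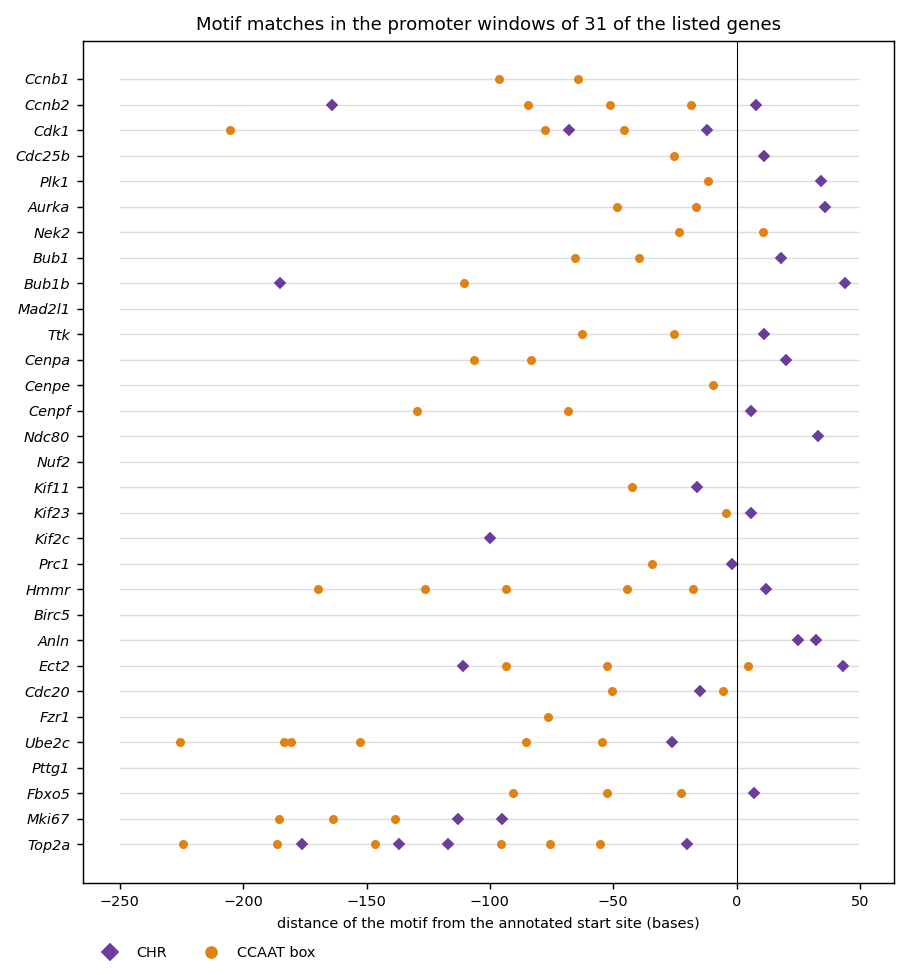
Positions of CHR (diamonds) and CCAAT box (circles) matches in the promoter windows of 31 of the listed genes, as distance of the motif's middle from the annotated start site in bases. Both motifs were found in 20 of the 31 genes, and the windows of Mad2l1, Nuf2, Birc5 and Pttg1 held neither.

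All members were measured well inside the range of the arrays: their mean log2 values ran from 7.1 for Foxm1 and Fzr1 to 12.9 for Pttg1, above the array medians of 5.15 to 5.21. The hepatoma markers Afp and Alb, the fetal and adult liver serum proteins, averaged 12.8 and 12.0 on the log2 scale, and the epithelial keratin gene Krt18 averaged 13.4. Defining markers of leukocytes (Ptprc, 3.31), endothelium (Pecam1, 3.65) and stellate cells (Lrat, 2.73) lay below the array medians. They were picked from lists of 7, 5 and 6 measured markers, and Afp, Alb and Krt18 from a list of 11. The other listed markers are not given, so the lists as a whole are not described here. At 0 h, 0 of 37 members and 0% of all genes were called between treated and untreated cultures by limma, with 2 members and 740 genes at an unadjusted p under 0.05. Differences below are in log2 units with the standard error from limma (SE, n = 2 arrays per group), p-values were adjusted over all 18193 genes, and called means an adjusted p under 0.05.

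Part of the mitotic set was lower in TGFβ1-treated cells, by small amounts. Of the 37 members, 14 were lower in treated than untreated cells at 3, 6 or 10 h, 3 were higher at one of these times and 20 were not called at any. Counts pooled over times were not made for all genes, so these have no background share, and the shares at each time follow. No called difference between treated and untreated cells exceeded 1.36-fold. At 1 h, 0 members were called by limma, with 2 at an unadjusted p under 0.05, while 1.91% of all genes were higher and 0.324% lower. At 3 h, 1 member was higher, where 6.73% of all genes were, and 7 were lower (18.9% of members, 8.55% of all genes). At 6 h, 2 were higher (5.41%, all genes 7.77%) and 9 lower (24.3%, all genes 7.96%). At 10 h, 0 were higher (all genes 5.07%) and 7 lower (18.9%, all genes 4.06%), and 32 of the 37 differences were below 0. Single arrays moved these counts: leaving out any 1 of the 4 arrays at 3 h left 1 to 3 members lower, leaving out treated replicate 2 at 6 h left 5, and leaving out treated replicate 1 or either untreated array at 10 h left 2 or 3. The higher counts became 0 at 3 h without treated replicate 1, and 0 or 1 at 6 h without any of the 4 arrays.

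The median difference of the 37 members was -0.08 at 3 h, -0.07 at 6 h and -0.12 at 10 h, beside -0.02, -0.03 and 0.00 over all genes. Averaged over the 37 members, the treated arrays at 10 h stood at 9.93 and 9.93 on the log2 scale, below the untreated arrays at 10.02 and 10.05. These are RNA levels of whole cultures, so fewer cells in G2 and mitosis and less transcript per such cell cannot be told apart.

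**Figure D2:**
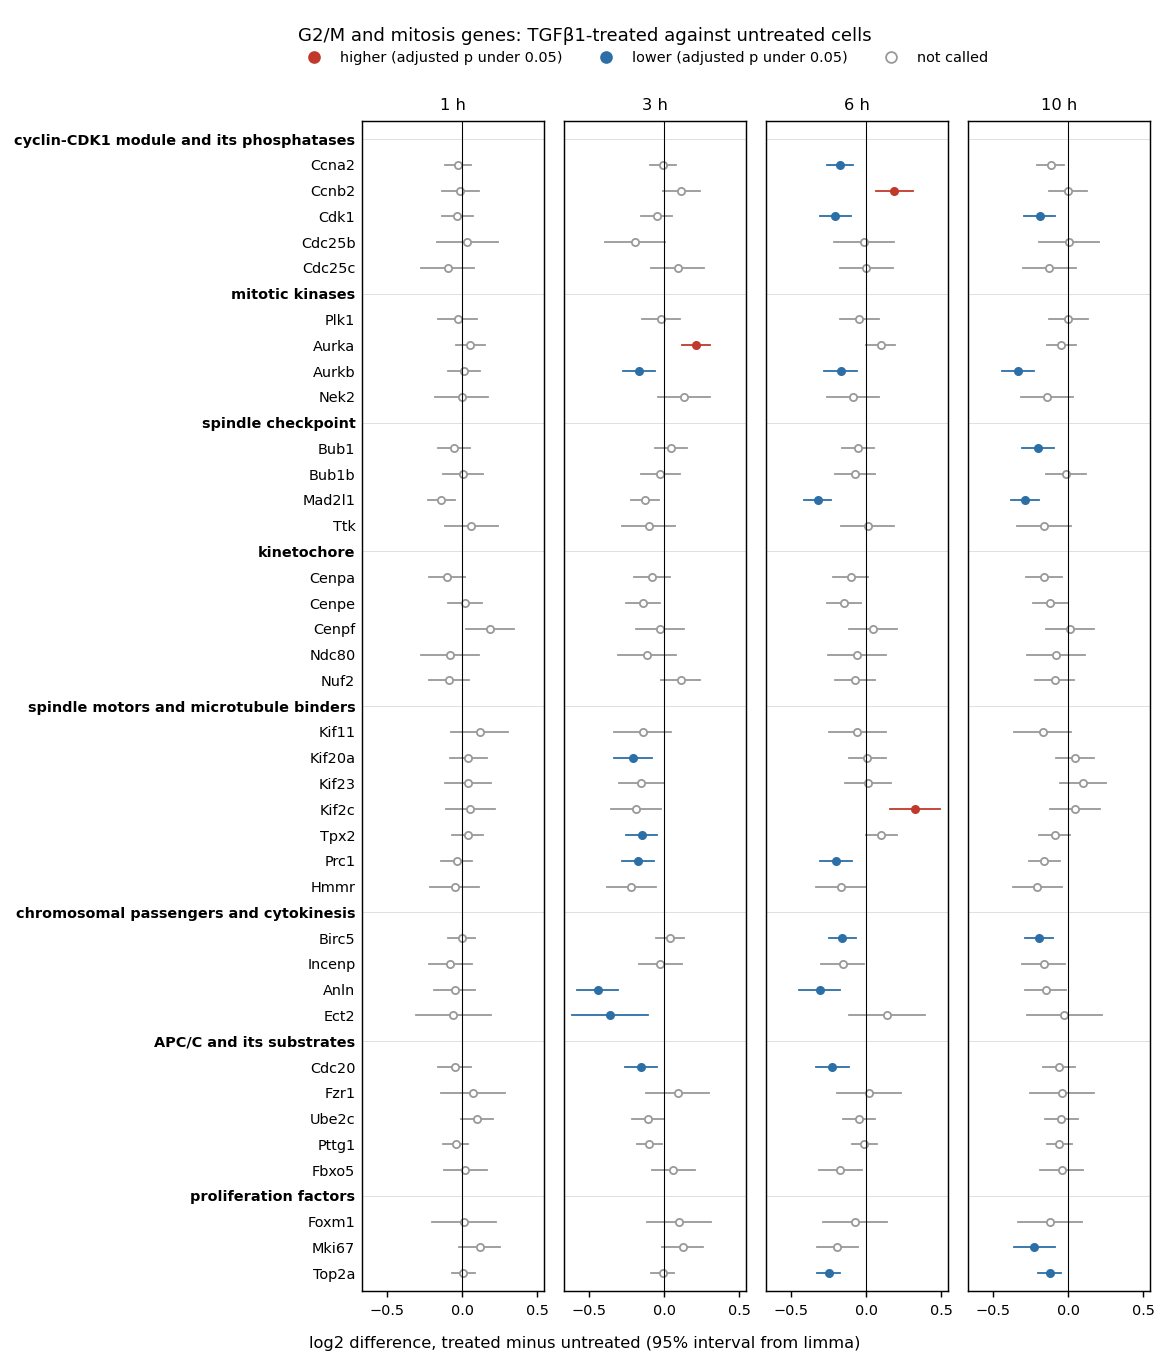
Log2 difference between treated and untreated cells (x axis) for the 37 measured members, by function, at 1, 3, 6 and 10 h, with 95% intervals from limma. Filled points were called, 8 at 3 h, 11 at 6 h and 7 at 10 h, and 0 at 1 h, and the fall of Anln at 3 h is the farthest from 0.

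In the cyclin and CDK1 module, the kinase itself and cyclin A2 were lower in treated cells at 6 h while cyclin B2 was higher. Cdk1 stood at 11.06 and 11.16 in the treated arrays at 6 h, against 11.31 and 11.33 in the untreated arrays. It was 1.15-fold lower (-0.21 ± 0.05, adjusted p = 0.00483), and at 10 h its treated arrays at 10.94 and 11.03 again lay below untreated arrays at 11.17 and 11.18 (-0.19 ± 0.05, adjusted p = 0.0161). Ccna2, the cyclin A2 gene, which acts from S phase into early mitosis, had 10.61 and 10.53 in treated and 10.73 and 10.76 in untreated cells at 6 h (-0.18 ± 0.04, adjusted p = 0.00523). The second Ccna2 probe set differed by -0.20, with an adjusted p of 0.0591. Ccnb2, the cyclin B2 gene, went the other way, with 9.97 and 9.91 in treated and 9.82 and 9.68 in untreated cells at 6 h (0.19 ± 0.06, adjusted p = 0.0367). The phosphatase genes Cdc25b and Cdc25c, whose products activate CDK1, were not called in treated against untreated cells at any time. Some of these calls rested on single arrays. Cdk1 at 6 h was lost without treated replicate 1 (adjusted p = 0.0998) and Ccna2 without treated replicate 2 (adjusted p = 0.0978). Ccnb2 was lost without either treated array or without untreated replicate 2 (adjusted p from 0.0751 to 0.362), and Cdk1 at 10 h without treated replicate 1 or either untreated array (adjusted p from 0.0897 to 0.228).

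Of the 4 mitotic kinases, Aurkb was lower in treated cells at 3, 6 and 10 h, and Aurka was higher at 3 h. Aurkb encodes Aurora B, the kinase of the chromosomal passenger complex that corrects faulty attachments. Its treated arrays read 9.81 and 9.79 at 3 h, 9.79 and 9.83 at 6 h and 9.51 and 9.48 at 10 h, against untreated arrays of 10.00 and 9.95, 9.97 and 10.00, and 9.78 and 9.89. The groups did not overlap at any of these times, and the difference was -0.17 ± 0.05 at 3 h and again -0.17 ± 0.05 at 6 h, with adjusted p of 0.0288 and 0.025. At 10 h it was -0.34 ± 0.05, with an adjusted p of 0.000141. That 10 h value, 1.26-fold lower, was called without any 1 of the 4 arrays, whereas at 3 and 6 h each array left out ended the call, with adjusted p from 0.0616 to 0.203. A second Aurkb probe set differed by -0.34 at 10 h (adjusted p = 0.12). Aurka, the Aurora A gene, whose product builds spindle poles, had 11.40 and 11.30 in treated and 11.15 and 11.14 in untreated cells at 3 h (0.21 ± 0.05, adjusted p = 0.00218). That rise was lost without treated replicate 1 (adjusted p = 0.06), and the mean of the Aurka probe sets had the opposite sign (-0.10, adjusted p = 0.609). Plk1 and Nek2, kinases of mitotic entry and of centrosome separation, were not called in treated against untreated cells.

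In the spindle checkpoint, which holds anaphase until all kinetochores are attached, Mad2l1 was lower in treated cells at 6 and 10 h and Bub1 at 10 h. Mad2l1 encodes MAD2, the inhibitor of the APC/C activator CDC20. Its treated arrays read 11.92 and 11.89 at 6 h, against untreated arrays at 12.27 and 12.19, a 1.25-fold lower level (-0.32 ± 0.04, adjusted p = 1.46e-05). At 10 h they read 11.77 and 11.83 in treated and 12.08 and 12.10 in untreated cells (-0.29 ± 0.04, adjusted p = 0.000138). Both calls held without any 1 of the compared arrays and under every alternative processing tried. At 1 and 3 h the treated arrays also lay below the untreated ones, by -0.14 and -0.13, which did not pass (adjusted p = 0.155 and 0.0554). Bub1, a checkpoint kinase gene, was lower at 10 h, with 10.69 and 10.74 in treated and 10.90 and 10.94 in untreated cells (-0.20 ± 0.05, adjusted p = 0.0122). Without treated replicate 1 its adjusted p was 0.139 and without untreated replicate 2 it was 0.121, and a dimmer probe set differed by 0.01. Bub1b, the gene of BUBR1, had 9.71 and 9.61 in treated and 9.73 and 9.74 in untreated cells at 6 h (-0.07, adjusted p = 0.534), and neither it nor Ttk, the gene of MPS1, was called between treated and untreated cells.

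None of the 5 kinetochore genes was called in treated against untreated cells at 1, 3, 6 or 10 h, with 1 or 2 of them at an unadjusted p under 0.05 at each time by limma. The nearest was Cenpe, the gene of the kinetochore motor CENP-E, with 10.07 and 10.15 in treated and 10.25 and 10.27 in untreated cells at 6 h (-0.15 ± 0.05, adjusted p = 0.0773). Cenpa, the centromeric histone gene, had 10.41 and 10.31 in treated and 10.44 and 10.49 in untreated cells at 6 h (-0.10 ± 0.06, adjusted p = 0.269). Cenpf, Ndc80 and Nuf2, the last 2 being partners in the NDC80 complex that grips microtubules, differed at 10 h by 0.01, -0.08 and -0.09.

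The 7 spindle motors and microtubule binders were all on the low side in treated cells at 3 h, with differences from -0.22 to -0.14, and 3 of them were called. Kif20a, the gene of a cytokinesis motor, had 10.08 and 10.11 in treated and 10.26 and 10.35 in untreated cells (-0.21 ± 0.06, adjusted p = 0.0201). Prc1, which bundles the midzone microtubules, had 10.04 and 9.92 in treated and 10.17 and 10.14 in untreated cells (-0.18 ± 0.05, adjusted p = 0.0189). Tpx2, the Aurora A activator on the spindle, had 10.15 and 10.16 in treated and 10.32 and 10.29 in untreated cells (-0.15 ± 0.05, adjusted p = 0.0438). Kif2c, Kif23, Kif11 and Hmmr were lower by values that did not pass. Each of the 3 calls was lost when single arrays were left out: Kif20a without either treated array or untreated replicate 2 (adjusted p from 0.0596 to 0.198), Prc1 without treated replicate 2 or either untreated array (0.0617 to 0.263) and Tpx2 without any of the 4 (0.104 to 0.222).

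By 6 h the motors no longer lay on one side, 4 being above 0 and 3 below. Prc1 was still lower, with 10.06 and 10.10 in treated and 10.28 and 10.28 in untreated cells (-0.20 ± 0.05, adjusted p = 0.00684), and its second probe set differed by -0.24 (adjusted p = 0.0321). At 3 h that second probe set had differed by -0.02 (adjusted p = 0.936), and with the mean of both the 3 h call of Prc1 was lost (-0.10, adjusted p = 0.24). Without treated replicate 1, the adjusted p of Prc1 was 0.0739. Kif2c, the gene of the microtubule depolymerase MCAK, had 10.95 and 10.76 in treated and 10.40 and 10.67 in untreated cells (0.32 ± 0.08, adjusted p = 0.00572). The spread within both groups was wide, the call was lost without treated replicate 1 (adjusted p = 0.133) or untreated replicate 1 (adjusted p = 0.162), and the other Kif2c probe sets differed by 0.01 and -0.09. The chosen probe sets of Kif2c, Cdc20, Aurkb, Incenp and Cdc25c are of the x_at class, in which Affymetrix places sets whose probes may also match other transcripts.

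Cytokinesis held the farthest difference of the set. Anln fell at 3 h to 10.12 and 10.17 in treated cells, against 10.65 and 10.53 in untreated cells, 1.36-fold lower (-0.45 ± 0.07, adjusted p = 3.49e-05). A dimmer Anln probe set differed by -0.62 at that time (adjusted p = 0.0234). At 6 h the treated arrays read 10.34 and 10.21 and the untreated arrays 10.55 and 10.63 (-0.31 ± 0.07, adjusted p = 0.00174). At 10 h, with 10.43 and 10.45 in treated and 10.55 and 10.64 in untreated cells, the difference of -0.15 did not pass (adjusted p = 0.188). The calls at 3 and 6 h held without any 1 array, and the one at 6 h was lost with the mean of both probe sets (-0.18, adjusted p = 0.273). Ect2, which activates RhoA at the cleavage site, was lower at 3 h, with 9.34 and 9.41 in treated and 9.82 and 9.67 in untreated cells (-0.36 ± 0.12, adjusted p = 0.0464), and was lost without any of the 4 arrays (adjusted p from 0.0648 to 0.293).

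Birc5, the gene of the passenger protein survivin, was lower at 6 h, with 11.00 and 10.88 in treated and 11.13 and 11.06 in untreated cells (-0.16 ± 0.04, adjusted p = 0.0153). At 10 h it had 10.55 and 10.56 in treated and 10.77 and 10.74 in untreated cells (-0.20 ± 0.04, adjusted p = 0.00589). The groups did not overlap at either time. The 6 h call was lost without treated replicate 2 (adjusted p = 0.258) or untreated replicate 1 (0.16), and the 10 h call without treated replicate 1 (0.0558) or untreated replicate 1 (0.0702). Incenp, the scaffold of the same complex, was not called between treated and untreated cells.

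Among the APC/C activators and substrates, only Cdc20 was called at 1, 3, 6 or 10 h. It had 11.70 and 11.59 in treated and 11.80 and 11.81 in untreated cells at 3 h (-0.16 ± 0.05, adjusted p = 0.0434), and 11.88 and 11.75 in treated and 12.06 and 12.03 in untreated cells at 6 h (-0.23 ± 0.05, adjusted p = 0.00343). Of the other Cdc20 probe sets, a bright one differed by -0.19 at 6 h (adjusted p = 0.176) and a dimmer one by 0.18 (adjusted p = 0.658). With the mean of the probe sets the 6 h difference was -0.08 and the call was lost (adjusted p = 0.305). The 6 h call was lost without treated replicate 2 (adjusted p = 0.0913), and the 3 h call without treated replicate 2 or either untreated array (0.126 to 0.354). Fzr1, the gene of the G1 activator CDH1, Fbxo5, the gene of the inhibitor EMI1, Ube2c, the conjugating enzyme, and Pttg1, the gene of securin, differed by -0.06 to -0.04 at 10 h. Of 14 APC/C core subunits, 2 were higher (14.3%, all genes 7.77%) and 1 was lower (7.14%, all genes 7.96%) at 6 h. Anapc10 was higher by 0.34 ± 0.05 (adjusted p = 3.3e-05), Anapc4 was higher by 0.19 and Anapc13 lower by -0.19 (adjusted p = 0.00954 and 0.0146). Anapc4 was lost without treated replicate 2 (0.0712) or untreated replicate 2 (0.107), and Anapc13 without treated replicate 1 (0.152) or either untreated array (0.0675 and 0.0694). At 10 h 1 of the 14 was lower (7.14%, all genes 4.06%), Anapc13 by -0.19 ± 0.05 (adjusted p = 0.0211). That call was lost without treated replicate 1 (adjusted p = 0.243) or either untreated array (0.0551 to 0.2).

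Top2a and Mki67 are widely used marks of cycling cells. Top2a had 12.35 and 12.35 in treated and 12.59 and 12.61 in untreated cells at 6 h, 1.19-fold lower (-0.25 ± 0.04, adjusted p = 3.45e-05), and this call held without any 1 array and under every alternative tried. At 10 h its arrays read 12.27 and 12.22 in treated and 12.35 and 12.39 in untreated cells (-0.13 ± 0.04, adjusted p = 0.0352). Mki67, the Ki-67 gene, had 10.82 and 10.80 in treated and 10.99 and 11.09 in untreated cells at 10 h (-0.23 ± 0.07, adjusted p = 0.0319). Both 10 h calls were lost without any of the 4 arrays, Top2a with adjusted p from 0.0638 to 0.266 and Mki67 from 0.0576 to 0.274. Foxm1, the transcription factor of the G2 program, differed by 0.10 at 3 h and -0.13 at 10 h and was not called.

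**Figure D3:**
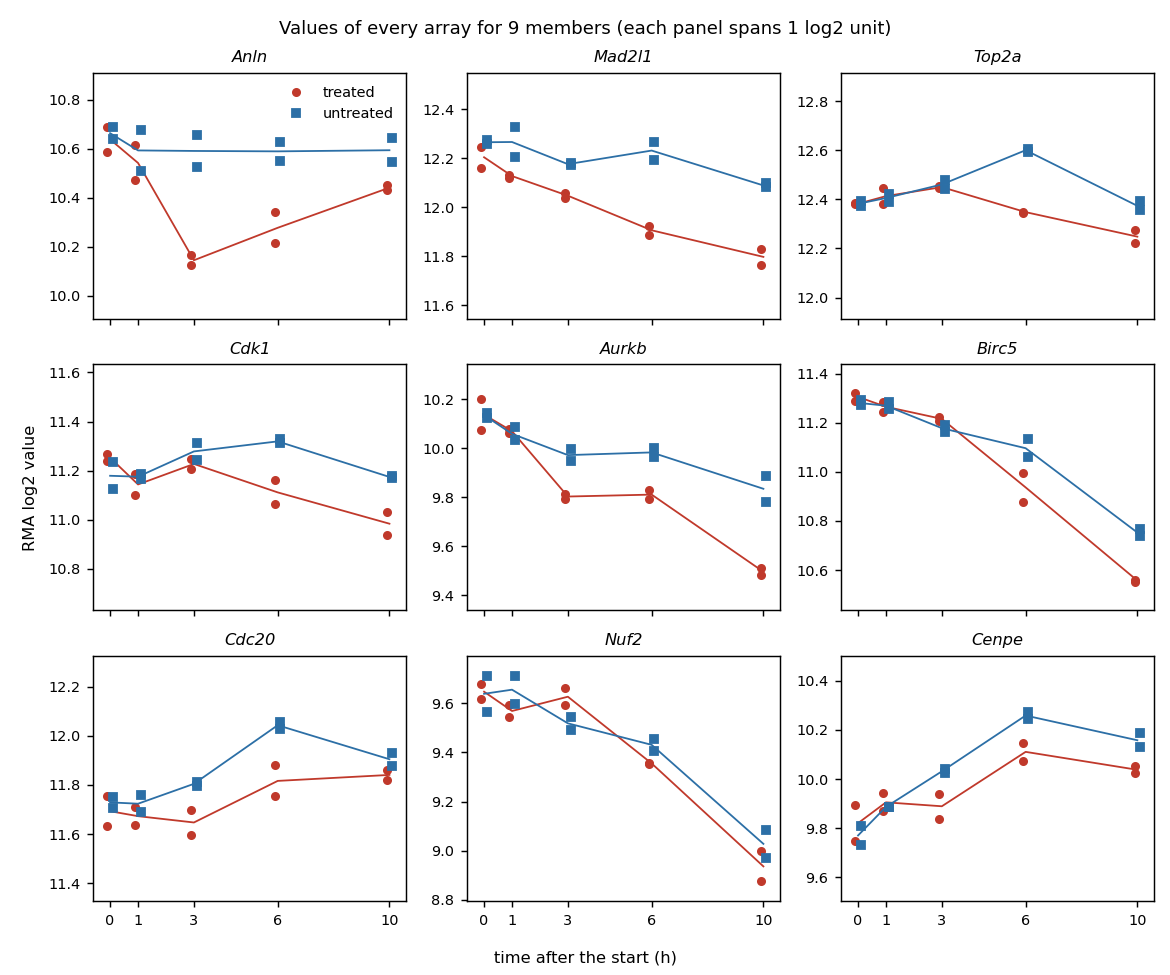
RMA log2 value of every array against time for 9 members, treated cells as circles and untreated cells as squares, with lines through the group means; each panel spans 1 log2 unit. Treated Anln is lowest at 3 h, Mad2l1 separates by 6 h, and Birc5 and Nuf2 fall over 10 h in both treated and untreated cells.

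Few members had a treatment effect that was called as different between times, and the share of all genes is given beside each count. The difference between treated and untreated cells was lower at 3 h than at 1 h for Anln (-0.39 ± 0.09, adjusted p = 0.0101), the only one of the 37 called by limma in that contrast, in which 6.41% of all genes were called. Between 6 h and 3 h the effect differed for 3 members (all genes 4.55%). It was lower at 6 h for Top2a (-0.24 ± 0.05, adjusted p = 0.00855) and higher for Kif2c (0.51 ± 0.11, adjusted p = 0.00905) and Tpx2 (0.25 ± 0.07, adjusted p = 0.0443). Between 10 h and 1 h it differed for 2 members (all genes 4.02%), being lower at 10 h for Aurkb (-0.35 ± 0.07, adjusted p = 0.006) and Mki67 (-0.34 ± 0.09, adjusted p = 0.0392). Between 10 h and 6 h, 0 members were called by limma, with 7 at an unadjusted p under 0.05 (all genes 2.44%). Each of the 6 calls was lost without at least 1 array, those of Tpx2 and Mki67 without most of the compared arrays. The calls of Tpx2 and Mki67 were also lost with further quantile normalization, every probe set tested, no variance trend or the compared arrays alone. Without the variance trend those of Anln, Kif2c and Top2a were lost too (adjusted p = 0.0701, 0.0792 and 0.102). Adjusted p reached 0.0749 for Anln without untreated replicate 2 at 1 h, 0.0502 for Top2a without untreated replicate 1 at 3 h, and 0.0612 for Kif2c without treated replicate 1 at 6 h. It reached 0.163 for Tpx2 without untreated replicate 2 at 6 h, 0.0549 for Aurkb without untreated replicate 2 at 10 h and 0.213 for Mki67 without untreated replicate 1 at 1 h.

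Between 0 h and 10 h in medium without growth factors, more members were called in both arms, with differences of up to 1.68-fold. In treated cells 4 members were higher at 10 h than at 0 h (10.8%, all genes 14.5%) and 15 lower (40.5%, all genes 13.6%). In untreated cells 7 were higher (18.9%, all genes 13.3%) and 11 lower (29.7%, all genes 12.8%). These comparisons share no arrays. All 11 genes that fell in untreated cells were among the 15 that fell in treated cells, and Anln, Cdk1, Cenpf and Top2a were called lower in treated cells alone. The overlap of falls between the arms was not counted over all genes, so this overlap has no background share. Whether the change over 10 h differed between the arms was not tested for these genes. Holding without any 1 array were 12 of the 19 calls in treated cells and 14 of the 18 in untreated cells.

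The genes that fell in both arms came from all functional groups. Birc5 had 10.55 and 10.56 at 10 h against 11.32 and 11.29 at 0 h in treated cells, a fall of -0.75 ± 0.04 (adjusted p = 7.82e-11), and 10.77 and 10.74 against 11.29 and 11.27 in untreated cells, -0.53 ± 0.04 (adjusted p = 1.48e-08). Ccna2 had 10.31 and 10.28 at 10 h against 10.98 and 10.93 at 0 h in treated cells (-0.65 ± 0.04), and 10.41 and 10.42 against 10.97 and 10.98 in untreated cells (-0.56 ± 0.04, adjusted p = 3.58e-09). Neither gene had overlapping arrays. Nuf2 fell by -0.71 ± 0.06 in treated and -0.61 ± 0.06 in untreated cells, where its arrays read 8.97 and 9.09 at 10 h and 9.71 and 9.56 at 0 h. Nek2 had 8.82 and 8.80 at 10 h against 9.50 and 9.60 at 0 h in treated cells, and 8.94 and 8.97 against 9.56 and 9.44 in untreated cells. Its falls were -0.74 ± 0.08 (adjusted p = 6.03e-07) and -0.54 ± 0.08 (adjusted p = 3.81e-05). A second Nek2 probe set fell by -0.34 in treated and -0.49 in untreated cells.

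The remaining genes lower in both arms were Kif11, the bipolar spindle motor, Incenp, Fbxo5, Mki67, Aurkb, Mad2l1 and Plk1. Kif11 fell by -0.58 ± 0.09 in treated and -0.44 ± 0.09 in untreated cells, and its second bright probe set by -0.63 and -0.42. Fbxo5 had 9.10 and 9.02 at 10 h against 9.57 and 9.38 at 0 h in treated cells, and 9.13 and 9.09 against 9.54 and 9.41 in untreated cells, falls of -0.41 and -0.37 ± 0.07. Mki67 had 10.99 and 11.09 at 10 h in untreated cells, below 11.34 and 11.42 at 0 h (-0.34 ± 0.07, adjusted p = 0.000449), and fell by -0.49 in treated cells. Aurkb fell by -0.64 ± 0.05 in treated cells and -0.30 ± 0.05 in untreated cells. In untreated cells the call of Plk1 (-0.18 ± 0.06, adjusted p = 0.0349) was lost without any of the 4 arrays (0.0736 to 0.178). The call of Incenp in untreated cells was lost with the mean of its probe sets (-0.21, adjusted p = 0.06).

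A smaller group was called higher over the same hours, in treated cells at a share below that of all genes. Cenpe, Tpx2 and Cdc20 were higher at 10 h in both arms. With the mean of a gene's probe sets, the calls of Cenpe and Tpx2 were lost in both arms, and that of Cdc20 in treated cells. Cenpe had 10.05 and 10.02 at 10 h against 9.75 and 9.89 at 0 h in treated cells (0.22 ± 0.05, adjusted p = 0.00422), and 10.19 and 10.13 against 9.73 and 9.81 in untreated cells (0.39 ± 0.05, adjusted p = 1.4e-05). Its second probe set moved by 0.10 and 0.04 and was not called. Tpx2 had 10.41 and 10.38 at 10 h against 10.17 and 10.09 at 0 h in untreated cells (0.26 ± 0.05, adjusted p = 0.000325). Its second bright probe set moved by -0.05 in untreated and -0.07 in treated cells. Bub1 had 10.90 and 10.94 at 10 h against 10.74 and 10.64 at 0 h in untreated cells (0.24 ± 0.05, adjusted p = 0.00126), but a dimmer probe set moved by -0.57 (adjusted p = 0.0417). Cenpa (0.23), Ube2c (0.20) and Ccnb2 (0.18) were also higher in untreated cells, and Pttg1 (0.12) in treated cells. The calls of Cenpa and Pttg1 were lost with the mean of a gene's probe sets (adjusted p = 0.466 and 0.188). Pttg1 was also lost with further quantile normalization (0.076) and with all 4 arrays at 0 h as the start (0.102).

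Several of these calls were lost without single arrays. In treated cells Cenpe was lost without replicate 1 of 0 h (adjusted p = 0.113), Tpx2 without replicate 1 of 0 h or of 10 h (0.196 and 0.184), and Cdc20 and Pttg1 without replicate 1 of 0 h (0.38 and 0.229) or either 10 h array. In untreated cells Ccnb2 was lost without replicate 2 of 0 h (0.205) or either 10 h array, Ube2c without replicate 2 of 0 h (0.0884) or replicate 1 of 10 h (0.0564), and Cdc20 without replicate 1 of 0 h (0.106) or replicate 2 of 10 h (0.124). Of the falls in treated cells, Anln and Cenpf were lost without replicate 2 of 0 h (0.24 and 0.408) or either 10 h array, and Top2a without replicate 2 of 10 h (0.101). With the mean of a gene's probe sets, the falls of Cenpf and Top2a were lost as well (0.544 and 0.423). The dimmer Anln probe set fell by -1.03 in treated cells over the same hours (adjusted p = 0.000137), and the second bright Cdc20 probe set moved by -0.08 in treated cells and 0.32 in untreated cells.

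At 6 h the members were called against 0 h in both directions. In treated cells 6 members were higher than at 0 h (all genes 11.2%) and 11 lower (all genes 12.8%), and in untreated cells 10 were higher (all genes 10.4%) and 9 lower (all genes 10.3%). Among those higher in untreated cells at 6 h were Top2a (0.22), Cdc20 (0.31), Prc1 (0.26) and Cdk1 (0.14). These 4 were picked from the 10 as genes also lower in treated than untreated cells at 6 h. Both comparisons use the same untreated arrays. The overlap was not counted over all genes, so it has no background share.

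**Figure D4:**
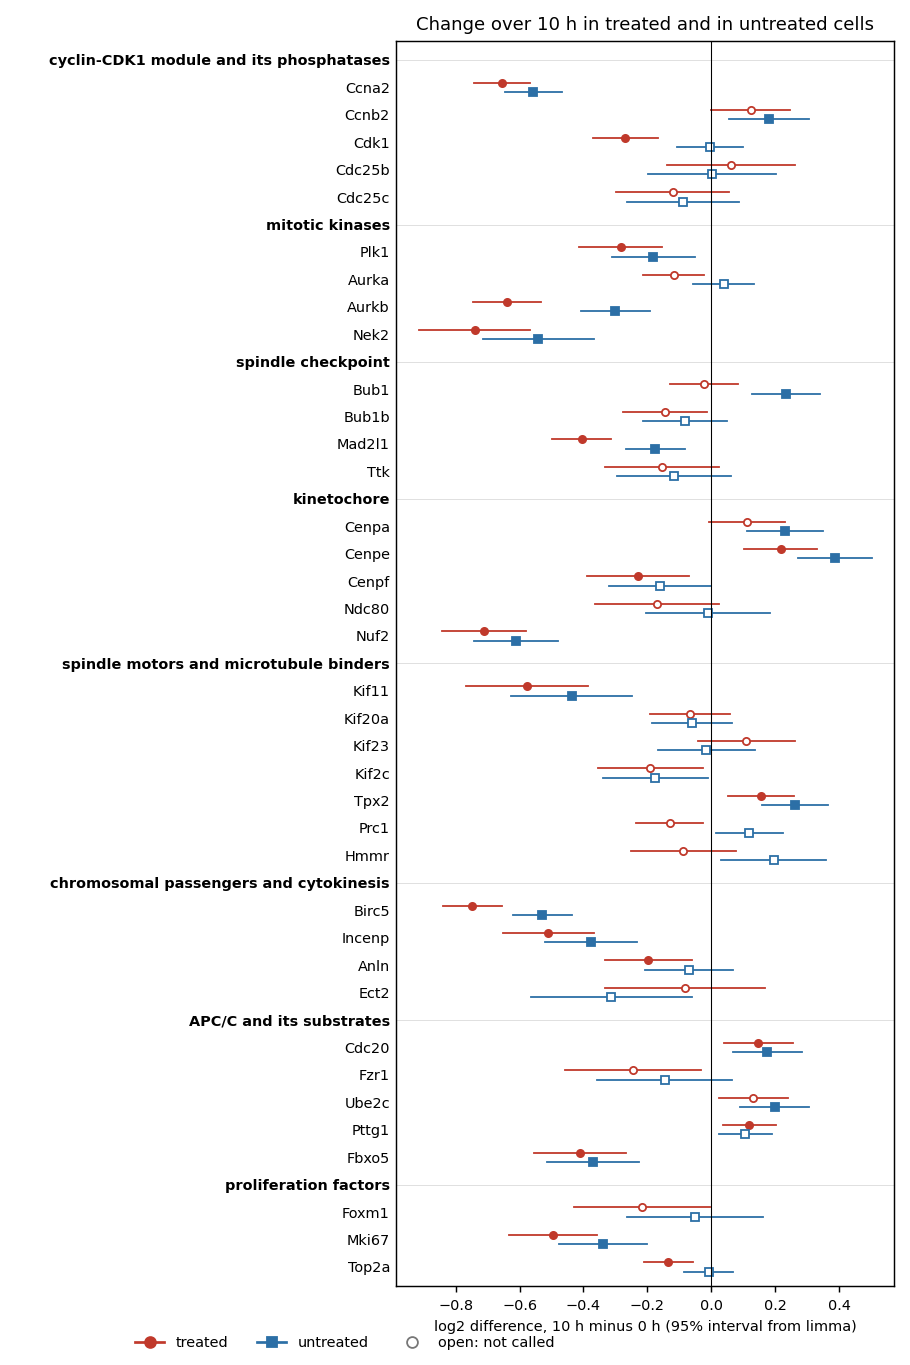
Log2 difference between 10 h and 0 h for the 37 members, treated cells (circles, upper) and untreated cells (squares, lower), with 95% intervals from limma; filled points were called. In treated cells 15 members fell and 4 rose, and in untreated cells 11 fell and 7 rose.

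Set beside the members, 84 other mitosis genes were also called mainly on the low side. In treated cells 13 were lower (15.5%, all genes 8.55%) and 2 higher (2.38%, all genes 6.73%) at 3 h, 19 lower (22.6%, all genes 7.96%) and 0 higher at 6 h, and 17 lower (20.2%, all genes 4.06%) and 0 higher at 10 h. At 3 h those with the lowest adjusted p were Spc25, an NDC80 complex subunit gene (-0.38 ± 0.05, adjusted p = 5.63e-06), Psrc1 (-0.37, adjusted p = 7.24e-06), Cks2, a CDK1 partner, which was higher (0.33 ± 0.06, adjusted p = 0.000269), and Sgo2a, a shugoshin gene (-0.33, adjusted p = 0.000489). At 6 h they were Ncapg2, a condensin subunit gene (-0.47 ± 0.07, adjusted p = 5.07e-05), Spc24, the partner of Spc25 (-0.43 ± 0.07, adjusted p = 9.44e-05), and the centromere genes Cenpu (-0.46 ± 0.08, adjusted p = 0.000216) and Cenpn (-0.40, adjusted p = 0.000532). Of 44 genes of the step before, G1/S and DNA replication, 28 were lower (63.6%, all genes 7.96%) and 1 higher at 6 h. Rrm2, a ribonucleotide reductase gene (-0.32, adjusted p = 1.63e-05), Slbp, the histone stem-loop binder (-0.35, adjusted p = 1.91e-05), and Cdc6, a licensing factor gene (-0.51 ± 0.07, adjusted p = 3.06e-05), led them. The Slbp call was lost with the mean of its probe sets (adjusted p = 0.0653). At 3 h 3 of the 44 were lower (6.82%, below the 8.55% of all genes), and at 10 h 17 (38.6%, all genes 4.06%). The difference in share between these lists was not tested.

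**Figure D5:**
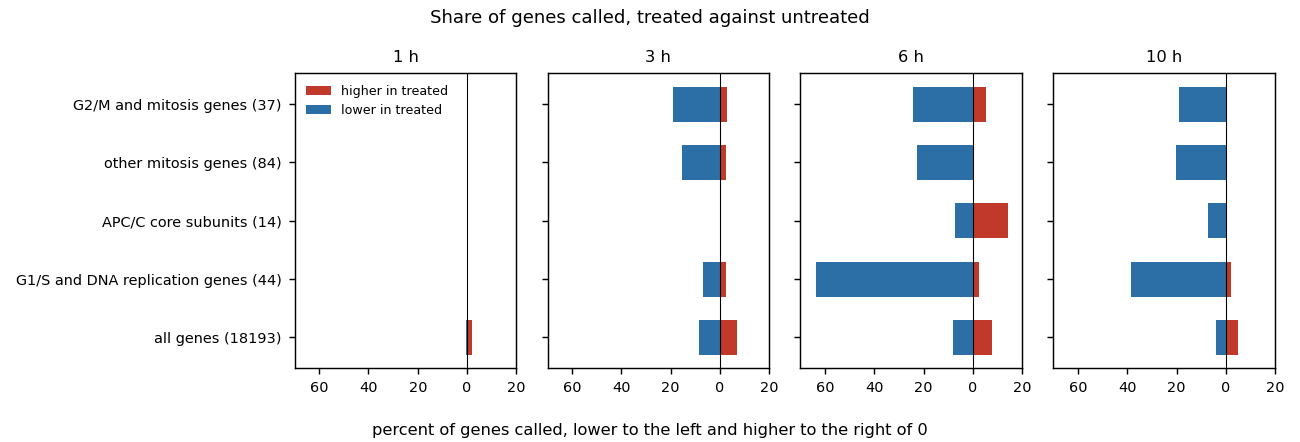
Percent of genes called in treated against untreated cells, higher to the right and lower to the left of 0, for the 37 members, other mitosis genes, APC/C core subunits, G1/S genes and all genes, at 1, 3, 6 and 10 h; the number of genes is in parentheses. At 6 h, 24.3% of the members and 63.6% of the G1/S genes were lower.

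Of 24 genes known to regulate these promoters, 1 was higher in treated cells at 1 h (4.17%, all genes 1.91%), 3 were higher (12.5%, all genes 6.73%) and 5 lower (20.8%, all genes 8.55%) at 3 h, 3 were lower at 6 h (12.5%, all genes 7.96%) and 2 at 10 h (8.33%, all genes 4.06%). E2f2, an activating E2F gene, had 7.85 and 7.46 in treated and 6.98 and 6.90 in untreated cells at 1 h (0.71 ± 0.12, adjusted p = 0.000451). At 3 h its treated arrays, at 6.54 and 6.41, lay below the untreated arrays at 7.06 and 7.06 (-0.58 ± 0.12, adjusted p = 0.00089). E2f1, another activator, was lower at 3 h (-0.50, adjusted p = 0.00016), 6 h (-0.37, adjusted p = 0.003) and 10 h (-0.38, adjusted p = 0.00497). Rb1, the retinoblastoma gene, was lower at 3 h (-0.55, adjusted p = 0.000259), and Nfya, a subunit gene of NF-Y, was higher (0.49, adjusted p = 0.000665). With the mean of a gene's probe sets the 3 h calls of E2f1, Rb1 and Nfya were lost (adjusted p = 0.28, 0.142 and 0.0977). The 10 h call of E2f1 was lost with that mean (adjusted p = 0.535) or without untreated replicate 1 (0.0729). At 6 h the repressor genes E2f8 (-0.46 ± 0.08, adjusted p = 0.000283) and E2f7 (-0.28, adjusted p = 0.0118) were also lower, E2f7 being lost without treated replicate 2 (0.146) or untreated replicate 1 (0.101).

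Mybl2, E2f4, Rbl2 and Lin54, genes of the MMB and DREAM complexes, were not called at 1, 3, 6 or 10 h, and their differences at 6 h were -0.28, -0.04, 0.15 and 0.20. Rbl1, the p107 gene, was lower at 10 h, with 9.06 and 9.07 in treated and 9.23 and 9.35 in untreated cells (-0.23 ± 0.06, adjusted p = 0.0225). That call was lost without either treated array or untreated replicate 2 (adjusted p from 0.0901 to 0.262). Over 10 h Rbl1 fell by -1.24 in treated and -0.98 in untreated cells, Lin54 by -0.76 and -0.79, and Mybl2 by -0.78 and -0.63.

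Of 7 CDK inhibitor genes, 3 were higher in treated cells at 1 h (42.9%, all genes 1.91%). At 3 h and again at 6 h, 1 was higher (14.3%, all genes 6.73% and 7.77%) and 3 were lower (42.9%, all genes 8.55% and 7.96%). At 10 h, 2 were lower (28.6%, all genes 4.06%). Cdkn2b had 10.22 and 10.30 in treated and 9.66 and 9.45 in untreated cells at 1 h (0.70 ± 0.06, adjusted p = 3.67e-08), and the difference was 1.05 at 3 h, 0.70 at 6 h and 0.18 at 10 h, where it did not pass (adjusted p = 0.0672). In untreated cells Cdkn2b also rose, to 10.29 and 10.35 at 10 h against 9.63 and 9.62 at 0 h. Cdkn1a had 11.29 and 11.25 in treated and 10.97 and 11.10 in untreated cells at 1 h (0.24 ± 0.06, adjusted p = 0.0416) and was lower in treated cells at 3 h (-0.22 ± 0.06, adjusted p = 0.0145) and 6 h (-0.19 ± 0.06, adjusted p = 0.0335). The Cdkn1a calls did not hold without single arrays: at 1 h without either treated array or untreated replicate 1 (adjusted p from 0.12 to 0.386), at 3 h without treated replicate 1 (0.107) or untreated replicate 2 (0.202), and at 6 h without treated replicate 1 (0.49) or either untreated array (0.121 and 0.123). Cdkn1a rose over 10 h in both arms, by 0.59 in treated and 0.67 in untreated cells.

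Cdkn1b, the p27 gene, had 9.23 and 9.13 in treated and 8.72 and 8.50 in untreated cells at 1 h (0.57 ± 0.08, adjusted p = 3.99e-05) and was not called at 3, 6 or 10 h. Cdkn2c and Cdkn2d, the genes of the CDK4 and CDK6 inhibitors p18 and p19, were lower in treated cells at 3, 6 and 10 h. Cdkn2c differed by -0.38, -0.56 and -0.52, and at 6 h its treated arrays at 10.27 and 10.29 lay below the untreated arrays at 10.85 and 10.82 (adjusted p = 1.19e-08). Cdkn2d differed by -0.95, -0.86 and -0.68, and at 3 h its treated arrays at 7.30 and 6.85 lay below the untreated arrays at 8.11 and 7.93 (adjusted p = 4.37e-06).

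Promoter motifs were spread over members that behaved differently. A CHR was found in 8 of 10 members with a window that were lower in treated cells at 3, 6 or 10 h, in 4 of 8 that fell over 10 h in untreated cells and in 5 of 6 that rose there. CCAAT boxes stood in 7 of 10, 5 of 8 and 6 of 6 of these genes. The differences between these shares were not tested.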

How the data were processed

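RNA of 20 Hepa1-6 cultures was measured on Affymetrix arrays. The deposited values are log2 expression per probe set that the authors made by robust multi-array averaging (RMA), per the submitters' processing notes. The software, chip description file and genome build behind them were not given in the sources used here. Of 45037 probe sets, 34945 name 1 gene in the platform annotation, 932 several and 9160 none. The probe set with the highest mean over all arrays stood for each of 18193 genes. The members and lists were chosen with earlier results of these data known.

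One limma 3.58.1 model in R 4.3.3 (10 groups of 2 arrays, eBayes with a variance trend, 10 residual degrees of freedom) gave all differences, which were adjusted over all genes by the Benjamini-Hochberg method and called at 0.05. The model was tested on simulated data. Duplicates correlated at 0.9959 to 0.9972, and the number of arrays limits the precision. Comparisons with one group in common share its arrays. Alternatives were leaving out each array, the mean of a gene's probe sets, every probe set tested, genes above the median level, arrays centred on their medians, further quantile normalization, no variance trend, array weights, the compared arrays alone, all 4 arrays at 0 h as the start and a replicate block. Array values were given, per functional group, for up to 2 members with the lowest adjusted p at 6 h, the time with most calls, for the member with the lowest adjusted p in untreated cells over 10 h, and for other called members. From the other lists up to 4 genes per comparison between treated and untreated cells were named, those with the lowest adjusted p, and 8 regulators whatever they did. Leaving-out results for differences between times were chosen after seeing the data.

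The duplicate numbers were not used to pair the cultures. Same-numbered arrays' deviations correlated at -0.0625 to 0.0927 over the 5 times, which cannot settle whether cultures were paired. With a replicate block, 2891 genes instead of 2780 were called between treated and untreated cells at 3 h, and 1788 instead of 1662 at 10 h. Promoter windows are RefSeq's on GRCm38.p6.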

Additional observations from a re-analysis of the deposited data

Results flagged for a closer look

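Several genes had a difference between treated and untreated cells that itself changed between times, tested with limma as a contrast of differences. Relative to 1 h, the difference at 3 h was lower by -0.3941 log2 units for Anln (adjusted p = 0.0101) and by -0.4569 for Cdkn1a (adjusted p = 0.00139), and higher by 0.3494 for Cdkn2b (adjusted p = 0.0109). The same contrast was lower by -1.2954 for E2f2 (adjusted p = 1.67e-05), -0.5736 for Cdkn1b (0.00144), -0.8686 for Cdkn2d (0.00185), -0.327 for Cdkn2c (0.00225), -0.5772 for Rb1 (0.0104), -0.4941 for E2f1 (0.0111) and -0.4071 for E2f8 (0.0332), and higher by 0.5112 for Nfya (0.0218). Cdkn1a was above the untreated arrays at 1 h and below them at 3 h.

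Relative to 3 h, the difference at 6 h was higher by 0.5129 for Kif2c (adjusted p = 0.00905) and by 0.2497 for Tpx2 (adjusted p = 0.0443). It was lower by -0.2414 for Top2a (adjusted p = 0.00855) and by -0.3538 for Cdkn2b (adjusted p = 0.0151), and by -0.3966 for E2f7 (adjusted p = 0.0355). Relative to 6 h, the Cdkn2b difference at 10 h was lower by -0.5218 (adjusted p = 0.000792).

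Relative to 1 h, the difference at 10 h was lower by -0.3488 for Aurkb (adjusted p = 0.006), by -0.345 for Mki67 (adjusted p = 0.0392) and by -0.5262 for Cdkn2b (adjusted p = 0.000374). It was also lower for Cdkn2c (-0.4757, adjusted p = 6.17e-05), Cdkn1b (-0.6111, adjusted p = 0.0013), E2f2 (-0.8008, adjusted p = 0.00476) and Cdkn2d (-0.5996, adjusted p = 0.0484). Results of leaving out arrays are given for these changes in the mitosis genes alone. The changes of Kif2c, Top2a, Tpx2 and Mki67 were not called with the mean of a gene's probe sets, where the adjusted p was 0.826, 0.668, 0.688 and 0.0666.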

How the results depend on the processing

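With 2 arrays per group, differences near the called ones rest on single arrays. Of 958 values of members called, recomputed under the alternatives, 780 kept their direction and their call, 176 kept the direction and lost the call and 2 reversed. The reversals came with the mean of a gene's probe sets: Aurka at 3 h in treated against untreated cells (-0.10) and Bub1 in untreated cells over 10 h (-0.17). Among the other named genes 61 of 1223 values lost the call and 1 reversed, Rbl1 at 10 h (0.00829). The cause was not tested. With that mean, 1 member was lower at 1 h, 0 were higher and 3 lower at 3 h, 1 was higher at 6 h, and over 10 h 0 rose in treated and 4 in untreated cells. With every probe set tested, 4 were lower at 3 h and 1 higher at 6 h. Without the variance trend, 1 was lower at 3 h, 1 higher at 6 h, 2 lower at 10 h and 1 higher in treated cells over 10 h. With the compared arrays alone, 1 was higher at 6 h.

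Leaving out each array in turn gave 0 to 1 members lower at 1 h, 0 to 1 higher and 1 to 3 lower at 3 h, 0 to 1 higher and 5 to 9 lower at 6 h, and 2 to 5 lower at 10 h. Over 10 h it gave 0 to 4 higher and 12 to 16 lower in treated cells, and 5 to 7 higher and 10 to 10 lower in untreated cells. Effects that differed between times numbered 0 to 1 (3 h and 1 h), 0 to 2 (6 h and 3 h) and 0 to 2 (10 h and 1 h). The effect at 3 h against 1 h differed for 2 members with the replicate block and 0 without the variance trend. At 6 h against 3 h it differed for 6 with genes above the median level alone and 0 without the variance trend. At 10 h against 1 h it differed for 1 with further quantile normalization, every probe set tested, no variance trend or the compared arrays alone. With the replicate block, 8, 11 and 8 members were lower at 3, 6 and 10 h.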
